A study of Mus musculus with 7 samples.

Results

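The genes of the Wnt pathway were examined in 7 whole mouse embryos, 5 exposed to maternal diabetes and 2 not exposed. A probe set, the group of probes on the array that reads 1 transcript, was a member if its annotated symbol was a numbered Wnt, Fzd, Dkk or Sfrp gene, or was Lrp5, Lrp6, Ctnnb1, Axin1, Axin2, Apc, Gsk3b, Lef1, Tcf7, Tcf7l1 or Tcf7l2. This rule found 73 member probe sets of 46 genes among 22626 probe sets that are not array controls, and 48 of them, from 32 genes, were bright enough to be tested, among 14554 tested probe sets in all. Tcf7 was not analysed here.

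All embryos were of the FVB inbred strain and were taken at embryonic day 10.5, with 1 array per embryo. The exposed embryos came from a dam made diabetic with streptozotocin at 7 to 9 weeks of age, with blood glucose above 250 mg/dl from mating to harvest. Of these, 3 had no neural tube defect (NTD, a failure of the neural tube to close) and 2 had an NTD, while the 2 controls came from an untreated dam. Since each arm had 1 dam, exposure and litter cannot be told apart, and every p-value below is set against the spread between embryos of the same litters only. The values are signals of the Affymetrix MAS5 method, linear brightnesses scaled to a common mean on each array, and 1 probe set's level was not set against another's. In RNA from a whole embryo, fewer cells of a type and less RNA per cell cannot be told apart.

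Wnt proteins are secreted signals that bind Frizzled receptors together with the co-receptors Lrp5 and Lrp6. Without a signal, a complex of Axin, Apc and Gsk3 marks beta-catenin, encoded by Ctnnb1, for destruction, and with a signal beta-catenin accumulates and joins the TCF/LEF factors at target genes. In the embryo the pathway patterns the body axis, midbrain, dorsal neural tube and neural crest, and Dkk and Sfrp proteins restrain it outside the cell.

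The libraries differed in ways other than the labels. Exposed embryo 1 without NTD had a summed signal of 28879 over 12 genes of yolk sac endoderm and liver, against 1467 to 3644 in the other 6 embryos. Xist was at 6074 to 7533 on one probe set in 4 exposed embryos, and at 256 in exposed embryo 2 with NTD, 181 in control 1 and 165 in control 2, the 3 embryos with the Y-linked Eif2s3y at 203 to 245 (0.549 to 2.76 in the others), so sex followed exposure in all embryos but that exposed one. Summed signals were 6043 to 7039 in exposed and 6732 to 7314 in control embryos for 8 neural tube genes, and 64049 to 83489 against 51903 to 54146 for 6 red cell genes. Exposed embryos were also all above both controls in the sums of heart genes (9119 to 10874 against 8321 to 8607), somite and muscle genes (1700 to 2074 against 1455 to 1482), trophoblast genes (714 to 871 against 590.1 to 689) and decidua genes (930.1 to 1675 against 737 to 801). Not all genes of a list went with its sum. Of the heart genes only Myh7 was above both controls in all exposed embryos, at 1092 to 1619 against 1042 and 1024. Actc1 of that list overlapped, at 4731 to 6267 against 4840 and 4801. Hand1 of the trophoblast list was at 403 to 543 against 246 and 268, but Plac1 at 196 to 294 against 245 and 318. Meox1 of the somite list was at 913 to 1100 against 605 in both controls. Myog of that list was below both, at 183 to 244 against 260 and 257. Des of the decidua list overlapped between groups, at 187 to 529 against 205 and 49.9. All lists of embryonic tissues held signal in all 7 embryos. The part of these differences in the results was not tested.

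Of the 48 tested members, 0 had an adjusted p under 0.05 between exposed and control embryos by limma, a linear model that shares the estimate of spread between probe sets, with Benjamini-Hochberg adjustment over all tested probe sets. The background was 25 of 14554, or 0.172%. Before adjustment, 5 members had p under 0.05 with a higher signal in exposed embryos and 5 with a lower one, 10.4% each, against 7.63% and 8.52% of all tested probe sets. All 5 exposed embryos lay above both controls for 6 members (12.5%, against 11.4% of all) and below both for 5 members (10.4%, against 13.4% of all). The median log2 difference (1 is a doubling) was 0.02 over the 48 members and 0.00033 over all tested probe sets, with 26 members above 0 and 22 below. Without control 1, 0 members with p under 0.05 were higher and 1 lower, against 3.72% and 3.47% of all tested probe sets, and the median was -0.03. Without control 2, 4 were higher and 4 lower, against 5.47% and 4.03%. Either fit leaves 1 control, which is assumed to vary like the exposed embryos. Without exposed embryo 2 with NTD, 3 were higher and 4 lower, against 6.79% and 8.05% of all. Without exposed embryo 1 without NTD, which had the yolk sac signal, 4 were higher and 5 lower, against 7.94% and 8.88%.

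**Figure D1:**
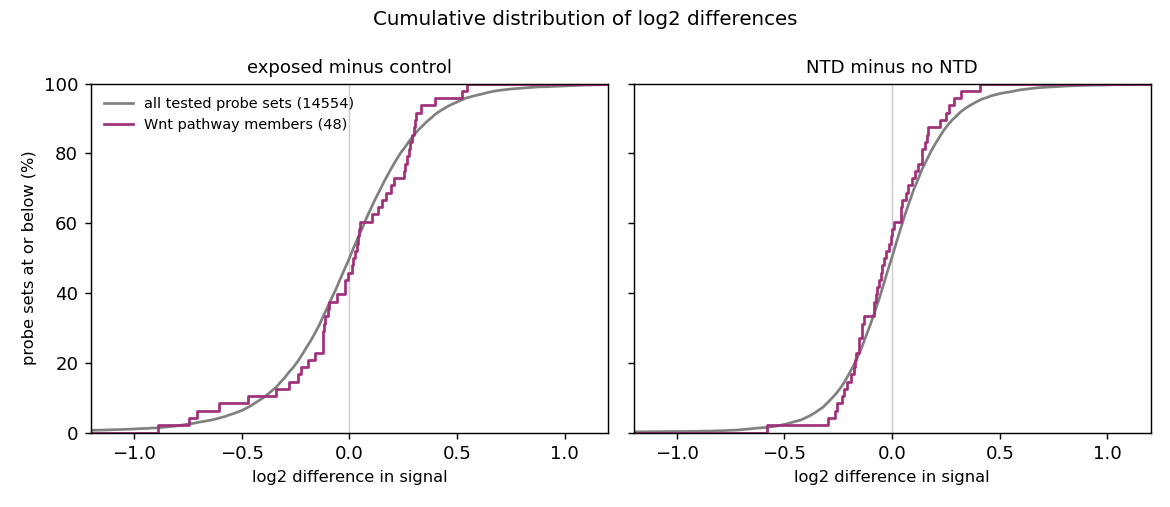
Cumulative share of tested probe sets (y axis, percent) at or below a given log2 difference in signal (x axis), for 48 Wnt pathway members and all 14554 tested probe sets, exposed minus control embryos on the left and embryos with NTD minus those without on the right. The members' steps follow the curve of all tested probe sets, with medians of 0.02 and -0.03.

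By role, the median log2 difference was highest in the Sfrp inhibitors (0.27, 7 probe sets) and the TCF/LEF factors (0.19, 5 probe sets), and lowest in beta-catenin and its destruction complex (-0.28, 9 probe sets). It was 0.13 for 12 probe sets of 10 Wnt ligand genes and -0.02 for 11 probe sets of 7 Frizzled genes. For 3 Dkk probe sets it was -0.16, and the 1 tested LRP probe set was at -0.22. The 5 TCF/LEF probe sets read only 2 genes. These medians over few probe sets are descriptions and were not tested.

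**Figure D2:**
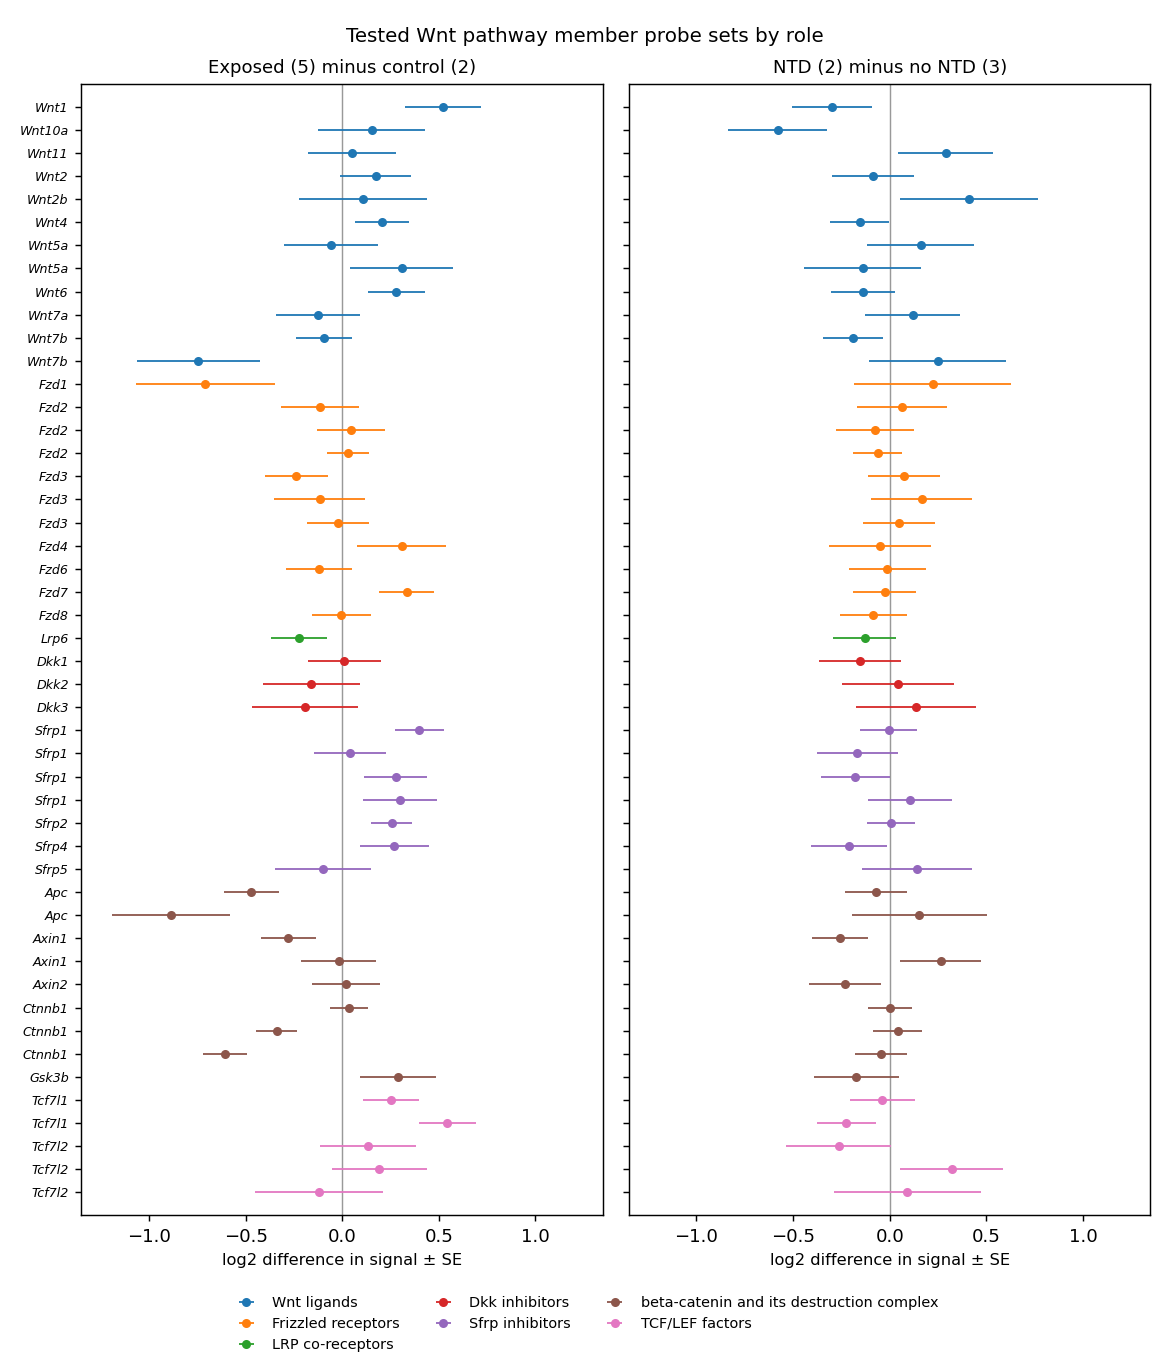
Log2 difference in signal with its SE (x axis) for each of the 48 tested member probe sets (y axis, 1 row each, coloured by role), exposed minus control on the left and NTD minus no NTD on the right. The largest differences on the left lie near -0.89 (the dim probe set of Apc) and 0.54 (Tcf7l1). On the right the Wnt10a row, at -0.58, is the farthest from 0.

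The component with the smallest p was Ctnnb1, which encodes beta-catenin, the pathway's transcriptional mediator and a protein of cell adhesion. The signals of one of its 3 probe sets were 2263, 1959.6 and 2418 in exposed embryos without NTD, 2189 and 2085 in those with NTD, and 3329 and 3302 in controls. All 5 exposed embryos lay well below both controls, and the controls nearly coincided. The means were 2183 ± 174 (SD, n = 5) and 3316 ± 19.3 (SD, n = 2), a log2 difference of -0.61 ± 0.11 (SE), with a limma adjusted p of 0.0619. The exact two-sided permutation p was 0.0476, the smallest that the 21 splits of 2 against 5 embryos allow.

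The other probe sets of Ctnnb1 did not give one value. A second probe set read 3634, 3673 and 4243 without NTD, 3768 and 4151 with NTD, and 5151 and 4696 in controls. Here too the groups did not overlap, with a log2 difference of -0.34 ± 0.11 (limma adjusted p = 0.177). The third read 9422, 9942 and 8398, then 9719 and 8791, against 9252 and 8762, with full overlap and a log2 difference of 0.04 ± 0.10 (limma adjusted p = 0.888). The mean of the 3 probe sets had a log2 difference of -0.30 and an adjusted p of 0.165. Exposed embryo 2 with NTD, the only exposed embryo with Y-linked signal, was below both controls on the first and second of these probe sets. The part of sex in the Ctnnb1 differences was not tested.

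Apc, the scaffold of the destruction complex and a tumour suppressor, had 2 tested probe sets, and both lay below both controls in all exposed embryos. The first read 549, 647 and 525 without NTD, 598 and 496 with NTD, and 803 and 750.0 in controls, a log2 difference of -0.47 ± 0.14 (limma adjusted p = 0.159). The second, a dim one, read 139.6, 68.3 and 141, then 117 and 129, against 201 and 225, with a log2 difference of -0.89 ± 0.31 (limma adjusted p = 0.199). This dim probe set was bright enough for testing on both control arrays but on only 1 exposed array. Neither probe set of Apc passed the adjusted threshold.

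Axin1, another scaffold of that complex, read 526, 500.3 and 575 without NTD, 449 and 443 with NTD, and 623 and 581 in controls on one probe set, with no overlap and a log2 difference of -0.28 ± 0.14. On its other probe set the difference was -0.02 ± 0.20 and the groups overlapped. Axin2, a feedback inhibitor that the pathway itself induces and a common readout of its activity, read 1067, 724 and 1020.4, then 729.9 and 848, against 863 and 848 in controls. The exposed embryos spread to both sides of the controls, with a log2 difference of 0.02 ± 0.17. The kinase Gsk3b had a log2 difference of 0.29 ± 0.20, with overlapping groups. In all, 6 of the 9 tested probe sets of this role lay below 0, 5 of them with no overlap (13.4% of all tested probe sets lay below both controls), and 4 had an unadjusted p under 0.05 (8.52% of all). These 9 probe sets read only 5 genes, 3 of them the same one. The dim probe set of Apc is counted among both the 5 and the 4, and among the lower members over all roles. Those counts rest partly on the filter.

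**Figure D3:**
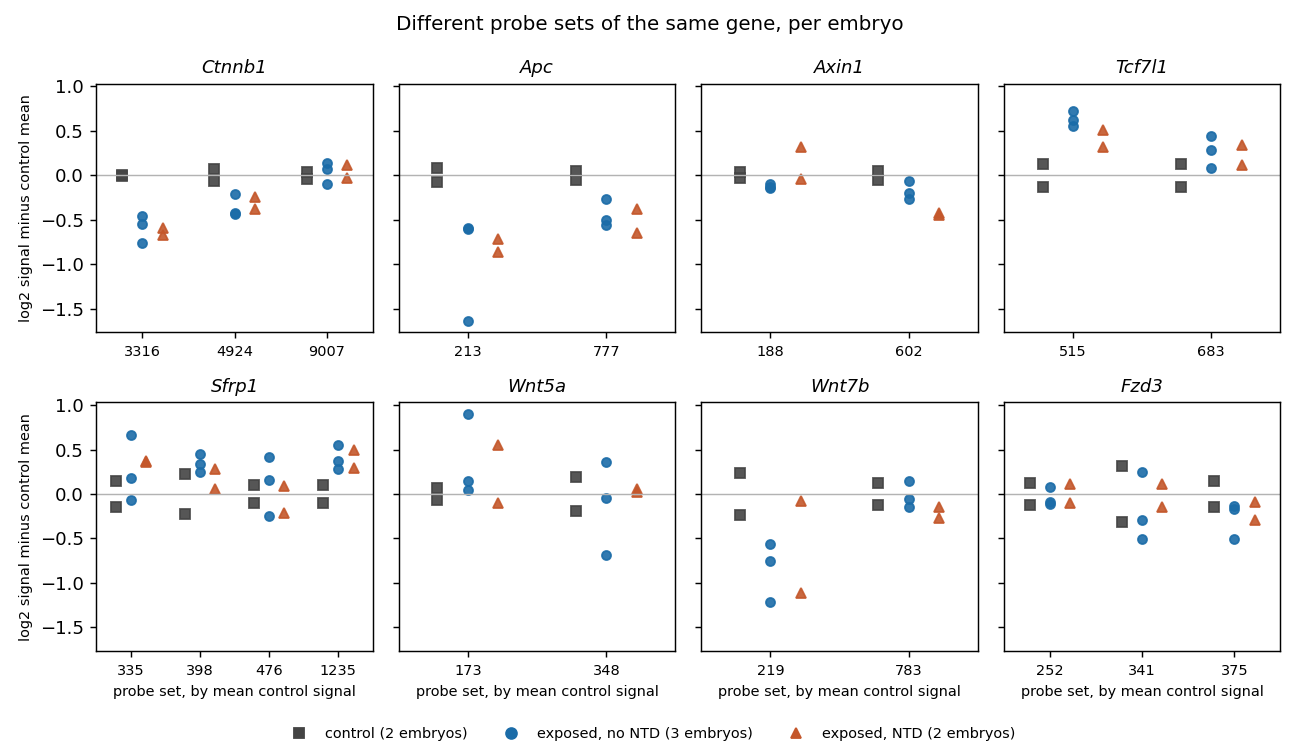
Log2 signal of each embryo minus the mean of the controls (y axis) for every tested probe set of 8 genes (x axis, each probe set labelled by its mean control signal). For Ctnnb1 the exposed embryos lie below the controls on 2 probe sets and among them on the one with a control mean of 9007, and for Apc they lie below the controls on both.

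Of 10 member genes with several tested probe sets, 4 (Ctnnb1, Fzd2, Tcf7l2 and Wnt5a) had probe sets on both sides of 0. The range between probe sets of 1 gene reached 0.65 on the log2 scale for Wnt7b and 0.64 for Ctnnb1, more than the difference between groups of any member probe set except 1 each of Apc, Wnt7b and Fzd1.

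Among the TCF/LEF factors, Tcf7l1 (also called Tcf3), which mostly represses target genes until beta-catenin arrives, was higher in exposed embryos on one probe set before adjustment. It read 752, 792 and 848 without NTD, 637 and 728 with NTD, and 469 and 561 in controls. All exposed embryos were above both controls, those with NTD being the closer ones. The log2 difference was 0.54 ± 0.15, with a limma adjusted p of 0.126. Its other probe set read 720.2, 922 and 830.1, then 864 and 739, against 746 and 621, which overlapped, with a log2 difference of 0.25 ± 0.15.

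Tcf7l2, a factor best known as an activator, had log2 differences of 0.19, 0.13 and -0.12 on 3 probe sets, with SEs of 0.25 to 0.33. Lef1, an activator in mesoderm and neural crest, was too dim to be tested, at 99.5 to 125 in exposed embryos and 116 and 109 in controls.

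The start regions of 4 genes are shown because their transcripts stand for the mediator, a TCF factor, a receptor and an inhibitor described here. Each is the 250 bases before the RefSeq transcription start in GRCm38.p6, read 5′ to 3′ on the gene's strand, at chr9:120933150-120933399 (plus strand) for Ctnnb1, chr6:72789046-72789295 (minus) for Tcf7l1, chr1:59481897-59482146 (plus) for Fzd7 and chr19:30549497-30549746 (minus) for Dkk1. Capitals mark letters of the TCF/LEF motif, searched on both strands as CTTTGAA or as CTTTGAT, and also as CTTTGTA or as CTTTGTT, which share their first letters and overlapped nowhere in these windows.
Ctnnb1: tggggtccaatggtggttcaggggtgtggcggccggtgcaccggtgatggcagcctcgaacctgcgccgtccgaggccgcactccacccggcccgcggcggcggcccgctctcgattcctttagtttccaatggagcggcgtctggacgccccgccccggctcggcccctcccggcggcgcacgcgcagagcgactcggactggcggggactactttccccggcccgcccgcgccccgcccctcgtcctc
Tcf7l1: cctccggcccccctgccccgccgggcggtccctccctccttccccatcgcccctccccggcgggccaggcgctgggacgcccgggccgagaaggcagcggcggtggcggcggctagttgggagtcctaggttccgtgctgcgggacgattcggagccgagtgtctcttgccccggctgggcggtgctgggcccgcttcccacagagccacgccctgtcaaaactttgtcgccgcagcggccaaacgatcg
Fzd7: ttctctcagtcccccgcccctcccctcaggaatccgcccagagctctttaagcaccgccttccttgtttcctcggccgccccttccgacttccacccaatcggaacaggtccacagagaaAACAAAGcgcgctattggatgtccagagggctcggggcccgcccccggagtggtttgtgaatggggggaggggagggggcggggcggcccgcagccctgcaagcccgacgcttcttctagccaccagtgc
Dkk1: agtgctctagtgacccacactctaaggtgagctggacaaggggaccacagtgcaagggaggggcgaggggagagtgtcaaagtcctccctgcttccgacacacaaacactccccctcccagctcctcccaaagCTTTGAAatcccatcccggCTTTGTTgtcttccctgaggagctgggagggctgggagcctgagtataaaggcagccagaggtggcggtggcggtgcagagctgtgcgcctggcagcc

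The Dkk1 region held 2 matches on the gene's strand and the Fzd7 region 1 on the opposite strand, and the other 2 regions held none of these letters. Such a match occurred in 14.8% of 32851 promoter windows of the same length, and in 15.8% of the 38 windows found for 30 of the 46 member genes. These are matches of letters only.

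Of the Wnt ligands, Wnt1, which is made in the midbrain and along the dorsal neural tube, had the smallest p. It read 230.3, 219.8 and 208 in exposed embryos without NTD, 166 and 191 with NTD, and 132 and 149 in controls. No exposed embryo reached down to the controls, and those with NTD lay between the other groups. The log2 difference was 0.52 ± 0.20, with a limma p of 0.0235 before and 0.237 after adjustment.

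Wnt4, which acts in kidney and gonad, read 438, 385 and 421, then 392 and 353, against 349.7 and 338 in controls. The groups did not overlap, but the lowest exposed embryo, at 353, was close to a control, and the log2 difference of 0.21 ± 0.14 had an adjusted limma p of 0.494. Wnt6, a ligand of surface ectoderm, had a log2 difference of 0.28 ± 0.15 with overlap.

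Wnt7b, needed in placenta and lung, read 93.1, 128 and 146, then 204 and 99.7, against 254 and 183 in controls on a dim probe set. One embryo with NTD lay above a control, and the log2 difference was -0.74 ± 0.32 (limma adjusted p = 0.286). On its other probe set, with 647 to 863 in exposed embryos and 719 and 848 in controls, the difference was -0.10 ± 0.15. Wnt5a, a ligand of the beta-catenin-independent branch needed for outgrowth of the axis and limbs, had overlapping groups on both probe sets, at -0.06 ± 0.24 and 0.31 ± 0.27.

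Wnt3a, required for paraxial mesoderm and the tail bud, was too dim to be tested. It read 125, 139 and 129.9 without NTD, 96.4 and 125 with NTD, and 119 and 88.3 in controls, which overlap. In all, 11 of the 23 Wnt ligand probe sets were not tested, with signals from 2.75 to 139.

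Fzd7, a Frizzled receptor of early mesoderm and neural tissue, read 952, 784 and 895 without NTD, 757 and 973 with NTD, and 727 and 653 in controls. The groups did not overlap, but the lowest exposed embryo was close to the higher control. The log2 difference was 0.33 ± 0.14, with a limma p of 0.0404 before and 0.289 after adjustment. A second, untested probe set of Fzd7 went the other way, with 7.85 to 23.0 in exposed embryos and 73.7 and 29.4 in controls.

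The other Frizzled genes overlapped between groups on every tested probe set. Fzd1 had a log2 difference of -0.71 ± 0.36 at signals of 62.3 to 169, Fzd4, which also carries the Norrin signal in blood vessels, 0.31 ± 0.23, and the 3 probe sets of Fzd3, a receptor of axon guidance and planar polarity, -0.24 to -0.02. The Fzd1 probe set was bright enough for testing on both control arrays but on only 1 exposed array. Lrp6, the main co-receptor in the embryo, read 767, 573 and 656, then 592 and 616, against 773 and 717 in controls. One exposed embryo lay between the controls, and the log2 difference was -0.22 ± 0.14 (limma adjusted p = 0.468). Its untested probe set read 11.8, 17.2 and 20.1, then 64.5 and 18.9, against 122 and 81.6.

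**Figure D4:**
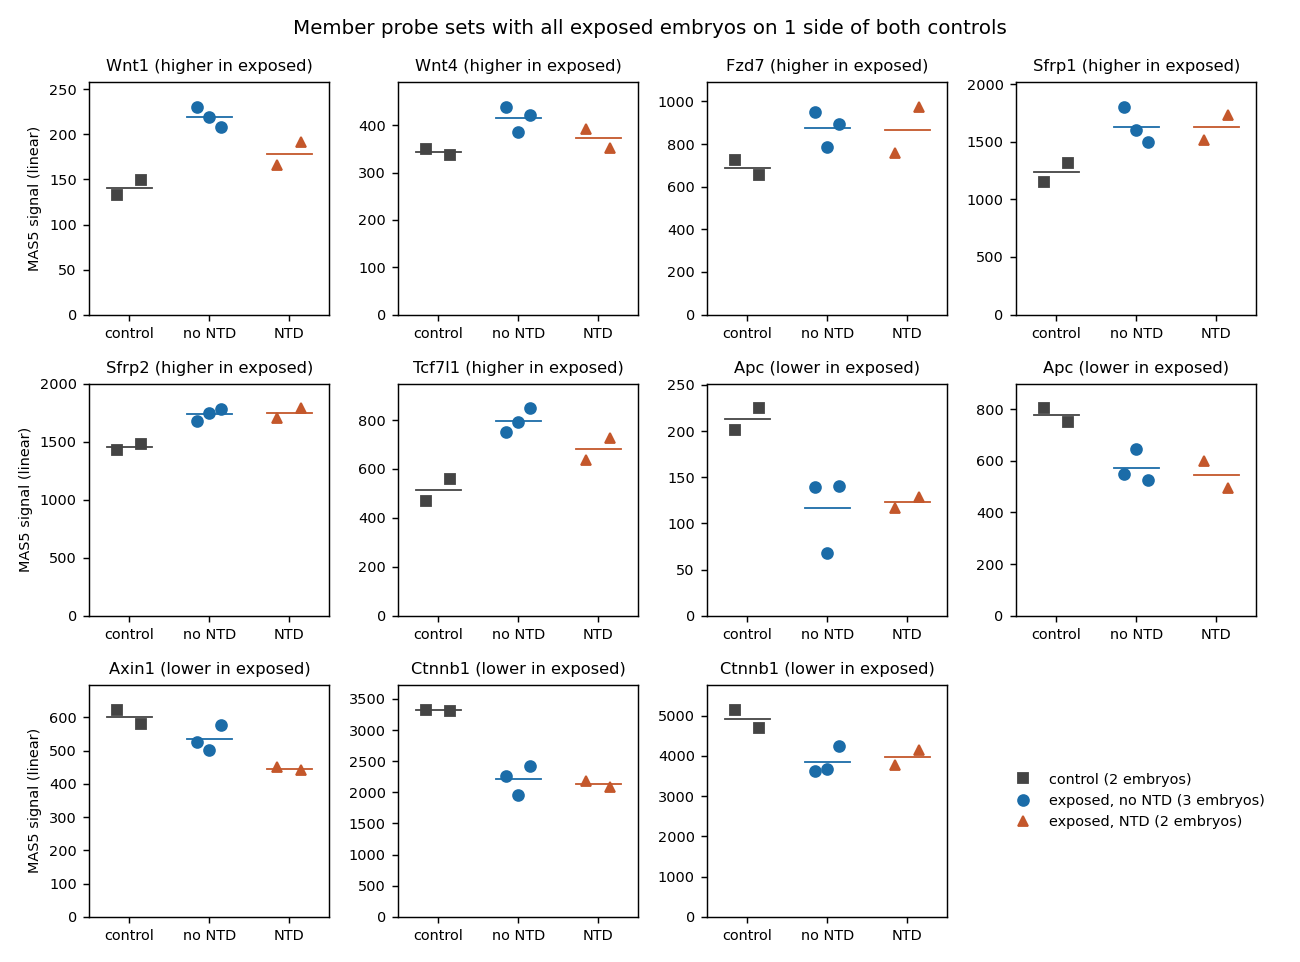
MAS5 signal (y axis, linear, from 0) of each embryo in the 11 tested member probe sets whose 5 exposed embryos all lie on 1 side of both controls, with a horizontal line at each group's mean. The gap between groups is widest relative to the spread for the Ctnnb1 probe set with controls at 3329 and 3302, and narrow for Wnt4 and Axin1.

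Among the Sfrp and Dkk inhibitors, Sfrp1 and Sfrp2, which bind Wnt proteins outside the cell, were the genes with a p under 0.05 before adjustment. One probe set of Sfrp1 read 1799.8, 1599.8 and 1495 without NTD, 1515 and 1734 with NTD, and 1153 and 1317 in controls, with no overlap and a log2 difference of 0.40 ± 0.13 (limma adjusted p = 0.174). Its other 3 probe sets overlapped between groups, at 0.30 ± 0.19, 0.28 ± 0.16 and 0.04 ± 0.19.

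Sfrp2, an inhibitor of neural tube and somites, read 1678, 1749 and 1783, then 1705 and 1789, against 1434 and 1479 in controls. The exposed embryos were tightly grouped and all above the controls, at 1741 ± 48.4 (SD, n = 5) against 1456 ± 31.8 (SD, n = 2). The log2 difference was only 0.26 ± 0.11, with a limma adjusted p of 0.271.

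Dkk1, which blocks Lrp6 and shapes the head, read 187, 213 and 231 without NTD, 199 and 178 with NTD, and 177 and 223 in controls. The groups covered the same range, with a log2 difference of 0.01 ± 0.19. Dkk2 and Dkk3 were at -0.16 ± 0.25 and -0.19 ± 0.27, also with overlap.

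Between embryos with and without NTD 0 members and 0 of all 14554 tested probe sets (0%) passed the adjusted threshold by limma in a fit of all 3 groups. Before adjustment 1 member had p under 0.05, 2.08% against 3.02% of all tested probe sets. This was Wnt10a, a ligand of skin and tooth, which read 153, 165 and 159.5 without NTD and 106 and 107 with NTD, against 112 and 133 in controls. The NTD embryos lay below all others, with a log2 difference of -0.58 ± 0.26 and a limma p of 0.0486 before and 0.999 after adjustment. The probe set passed the filter on low signals only through the embryos without NTD, so this difference supports nothing further. The count was 0 without exposed embryo 1 or 3 without NTD and without either control, and also without either embryo with NTD, where the lone embryo left is assumed to vary like the other groups.

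The next smallest p-values between these groups belonged to Axin1, Tcf7l1 and Wnt1. Axin1 had log2 differences of -0.26 ± 0.14 and 0.27 ± 0.21 on its 2 probe sets, Tcf7l1 -0.22 ± 0.15 and Wnt1 -0.30 ± 0.21, all with a limma adjusted p of 0.999. The median over the members was -0.03, against -0.0012 over all tested probe sets.

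A wider list of 66 pathway genes outside the rule had 86 tested probe sets, with 7 higher (8.14%) and 5 lower (5.81%) at an unadjusted p under 0.05, against 7.63% and 8.52% of all tested probe sets, and 0 passed the adjusted limma threshold. Among cytoplasmic components, Tnks2, a tankyrase that promotes Axin breakdown, read 65.0, 86.6 and 93.7, then 92.7 and 75.6, against 203 and 263 in controls on one probe set, with no overlap. This probe set passed the filter on low signals only through the 2 controls, so its difference is not given. It is among the 5 lower ones counted above, so that count rests partly on the filter. On the other probe set of Tnks2 the exposed embryos were above both controls, at 0.35 ± 0.13 (limma adjusted p = 0.237). Gsk3a, the sister kinase of Gsk3b, was at 0.65 ± 0.17 (limma adjusted p = 0.117).

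Of 17 tested probe sets of genes that the pathway is known to induce, 2 were higher and 2 lower before adjustment, 11.8% each against 7.63% and 8.52% of all. Myc, a growth regulator, read 576, 473 and 494, then 427 and 528, against 345 and 321, a log2 difference of 0.58 ± 0.15 (limma adjusted p = 0.111). Notum, an enzyme that inactivates Wnt proteins, was at 0.47 ± 0.16. Tnfrsf19, a membrane receptor, was at -1.03 ± 0.30 and -0.71 ± 0.22 on 2 probe sets and at 0.06 ± 0.19 on the third. The 2 lower probe sets counted above are thus both of this 1 gene.

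In the remaining lists, Frzb, a secreted Wnt binder, was at -0.64 ± 0.29 and -0.17 ± 0.15. The lower value had a limma p of 0.0462 before and 0.302 after adjustment. The first of these Frzb probe sets was dim, at 82.4 to 141 in exposed embryos against 172 and 163 in controls. It was bright enough for testing on both control arrays but on only 1 exposed array. Ryk and Ror2, receptors of the beta-catenin-independent branch, were at -0.38 ± 0.18 and -0.32 ± 0.17 on the probe sets of smallest p. Wls, which carries Wnt proteins to the cell surface, was at -0.26 ± 0.12 on its probe set of smallest p. Its others were at -0.27 ± 0.18 and -0.00029 ± 0.12. The cofactors Tbl1x and Tle5 were at 0.48 ± 0.13 and 0.39 ± 0.21 on their probe sets of smallest p. The other 2 probe sets of Tbl1x were at -0.39 and -0.33.

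Of the 73 members, 25 were not tested, and 14 genes, among them Lef1, Lrp5, Wnt3, Wnt3a and Wnt8b, had no tested probe set, with signals between 2.75 and 143. In 5 of the 25 untested probe sets the exposed embryos did not overlap with the controls, 20% against 13.1% of all 8072 untested probe sets. One was the second of Axin2, with 73.4, 28.2 and 85.0, then 110.1 and 95.4, against 161 and 133, while the brighter probe set described above showed no such gap.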

How the data were processed

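The deposited values are linear intensities: MAS5 signals that the authors computed per probe set from 7 Affymetrix 430A 2.0 arrays, 1 whole embryo each, and scaled so that the mean without the 2% at each end was 500.2 on every array. The version of MAS5 was not given in the sources used here. Detection calls were not used, and a second experiment on pooled embryos was not analysed here. The number of arrays limits the precision.

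Gene symbols came from the array annotation (20393 probe sets with 1 symbol, 691 with several, 1606 with none), and all member symbols were used as annotated. A probe set was tested, on log2 signals with a floor of 1, if on at least 2 of the 7 arrays its signal reached the 40th percentile. Exposed and control embryos, and in a fit of 3 groups embryos with and without NTD, were compared by limma 3.58.1 (lmFit and eBayes with trend) in R 4.3.3, with calls at an adjusted p under 0.05, by the method of Benjamini and Hochberg over all 14554 tested probe sets. Single probe sets were also compared by two-sided exact permutation. The fit was tested on simulated data.

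The members, the pathway and marker lists and the rule for named genes were chosen with earlier results of these data known. Named were up to 4 probe sets of smallest p per role, the 5 of smallest p for NTD against no NTD, every tested probe set of a gene so named, Wnt1, Wnt3a, Wnt5a, Ctnnb1, Axin2, Lef1, Dkk1 and Lrp6, and up to 2 probe sets of each other pathway list. Untested probe sets were named after their values were seen. Promoter sequences came from RefSeq (GRCm38.p6).

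Alternatives were quantile normalization, median centring, a floor of 32, an offset of 50, no filter, a filter at the 60th percentile, no trend, array weights, the methods' t-test, a fit of 3 groups, the title number as a replicate block, 1 value per gene, and each embryo left out. The title number was not taken as a pairing. Correlations between deviations from group means were -0.25 to 0.03 for same-numbered embryos and -0.16 to 0.25 for the others. In a group of 2 the deviations mirror each other, so these values cannot decide whether the numbers pair embryos. Figures were drawn with Matplotlib 3.10.9.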

Additional observations from a re-analysis of the deposited data

Results flagged for a closer look

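Each of the 48 tested members was checked for an exposed embryo far from the other 4, which chance gives in about 1 of 20 checks, and 2 had one. Sfrp4, a secreted inhibitor, was at 501 in exposed embryo 1 without NTD, the embryo with the yolk sac endoderm and liver signal, against 354 to 378 in the other exposed embryos. Axin1 was at 235 on its dimmer probe set in exposed embryo 1 with NTD, against 170.1 to 183 in the others. The part of other tissue in these values was not tested.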

How the results depend on the processing

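Over all alternatives, 0 members passed the adjusted threshold between exposed and control embryos, except with array weights, where 1 did (Ctnnb1, log2 difference -0.62, adjusted p = 0.0138, while 491 probe sets passed in all). Members with an unadjusted p under 0.05 numbered 5 higher and 5 lower. The higher count was 3 with no trend, 3 by the methods' t-test and 2 with the replicate block, and 0 to 5 with 1 embryo left out (3.72% to 7.94% of all tested probe sets). The lower count was 3 with the filter at the 60th percentile, 8 with array weights (11.4% of all tested probe sets were lower there) and 1 to 6 with 1 embryo left out (3.47% to 8.88% of all). With the replicate block 5 were lower and 0 of all tested probe sets passed the adjusted threshold, and the block rests on a shared number only. The share of all tested probe sets that were higher was 7.32% with no trend, 7.68% by the t-test and 6.44% with the block. The share that were lower was 7.39% with the block. The filter at the 60th percentile left only 27 members tested, beside 8.9% of all lower, and with no filter all 73 members were tested. Between embryos with and without NTD, 0 members passed in every alternative, and the 1 member with an unadjusted p under 0.05 became 0 with quantile normalization, median centring, the stricter filter, array weights or the replicate block, 3 with no filter, and 0 to 1 with 1 embryo left out. The medians moved by less than the spread between embryos, from -0.03 (without control 1) to 0.05 between exposed and control embryos. Of 641 recomputed values of the named members, 609 kept their direction and side of the threshold, and 30 changed sign with no p under 0.05 in either setting. For Ctnnb1, the brightest probe set stood at 0.04 and the mean of its 3 probe sets at -0.30, the opposite sign. The causes of these shifts were not tested, except that the filters change which probe sets enter. Small differences and probe sets near the background of the array are limited by 2 controls from 1 litter.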
